A study of Mus musculus with 15 samples.

Results

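The extracellular metalloproteinases and their inhibitors were followed in the aorta of mice given angiotensin II, with or without resolvin E1, and of Sham mice. The set holds the matrix metalloproteinases (MMPs), the membrane-bound ADAMs, the secreted ADAMTS proteases and the tissue inhibitors of metalloproteinases (TIMPs). Members were chosen by gene symbol alone, which gave 80 genes among the 34714 of the deposited table: 34 ADAM, 19 ADAMTS, 23 MMP and 4 TIMP genes. Of these, 34 reached 1 in 5 or more libraries and are described in detail as the retained members: 10 MMP, 11 ADAM, 9 ADAMTS and 4 TIMP genes.

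Aortas of wild-type mice gave 15 RNA-sequencing libraries, 5 in each of 3 groups. AngII+RvE1 mice received angiotensin II, a vasoconstrictor peptide that raises blood pressure, infused at 750 ng per kg and minute, and resolvin E1 (RvE1), a lipid mediator known for ending inflammation, by intraperitoneal injection at 2 µg per kg per day. AngII mice received the infusion without RvE1, and Sham mice were the control group. No group received RvE1 without angiotensin II. The labels give no age, sex or length of treatment. The study's subject was hypertension and vascular remodelling.

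MMPs are zinc proteases made as inactive precursors, and together they cut most components of the extracellular matrix. ADAMs release the outer domains of membrane proteins such as cytokines, growth factors and receptors, while ADAMTS proteases cut proteoglycans and process procollagen and fibrillin microfibrils. TIMPs bind the active site of these proteases and block it. In the artery wall this balance is known for its part in the turnover of elastin, collagen and proteoglycans, and smooth muscle cells, adventitial fibroblasts and leukocytes all make members of these families.

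The deposited values were taken to be FPKM (fragments scaled to both transcript length and sequencing depth). Library sums ran between 385846 and 514281, read depth is unknown, and so no counting interval can be given. Genes at 1 or more numbered 11466 to 12996 per library. Contractile smooth muscle markers were present in every library (summed level 1206 to 12242 FPKM over 10 genes), and so were adipocyte markers (6821 to 18609 FPKM over 8 genes). Cardiac muscle markers ran from 10.4 to 2143 FPKM over 7 genes, with no group keeping to one end. AngII libraries 3, 4 and 5 stood apart on the first principal component, which held 41.1% of the variance, with scores of 78.9, 32.9 and 75.8 against at most 2.37 in the other 12. Their lymphocyte markers averaged 5.07, 3.87 and 5.75 on the log2(FPKM + 1) scale, against at most 2.25 elsewhere. Nothing in the labels states that each library is a different animal, and p-values therefore reflect only how these samples vary.

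The TIMPs were the most abundant of the 4 families. Summed over all 80 genes, the families reached 539 to 815 FPKM in AngII+RvE1 libraries, 454 to 767 FPKM in AngII libraries and 301 to 869 FPKM in Sham libraries. TIMPs held 45.7% to 54.5% of that sum in the 15 libraries, MMPs 17.4% to 23.6%, ADAMs 15.8% to 26.5% and ADAMTS genes 7.84% to 13.5%. The 34 retained members made up 98.2% to 99.4% of it. By mean level over 15 libraries, Timp2 (149 FPKM) and Timp3 (122 FPKM) led, followed by Adam15 (48.3 FPKM), Mmp3 (28.1 FPKM), Mmp2 (24.5 FPKM), Timp1 (23.96 FPKM) and Mmp23 (23.7 FPKM). The mean of Timp1 rests on AngII library 3 at 152 FPKM, and its median over the 15 libraries was 13.6 FPKM. From Mmp3 to Mmp23 the ranges overlapped and the order changed from library to library, so these neighbours are not separated by level. The ranges of Timp2 and Timp3 overlapped too, but Timp2 was the higher in every library except Sham library 5 (154 against 171 FPKM). Sham libraries held both ends of the families' range: Sham library 3 was the lowest of all 15 for 17 of the 34 members, and Sham library 1 was the highest for 8. AngII library 3 was the highest for another 8.

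**Figure D1:**
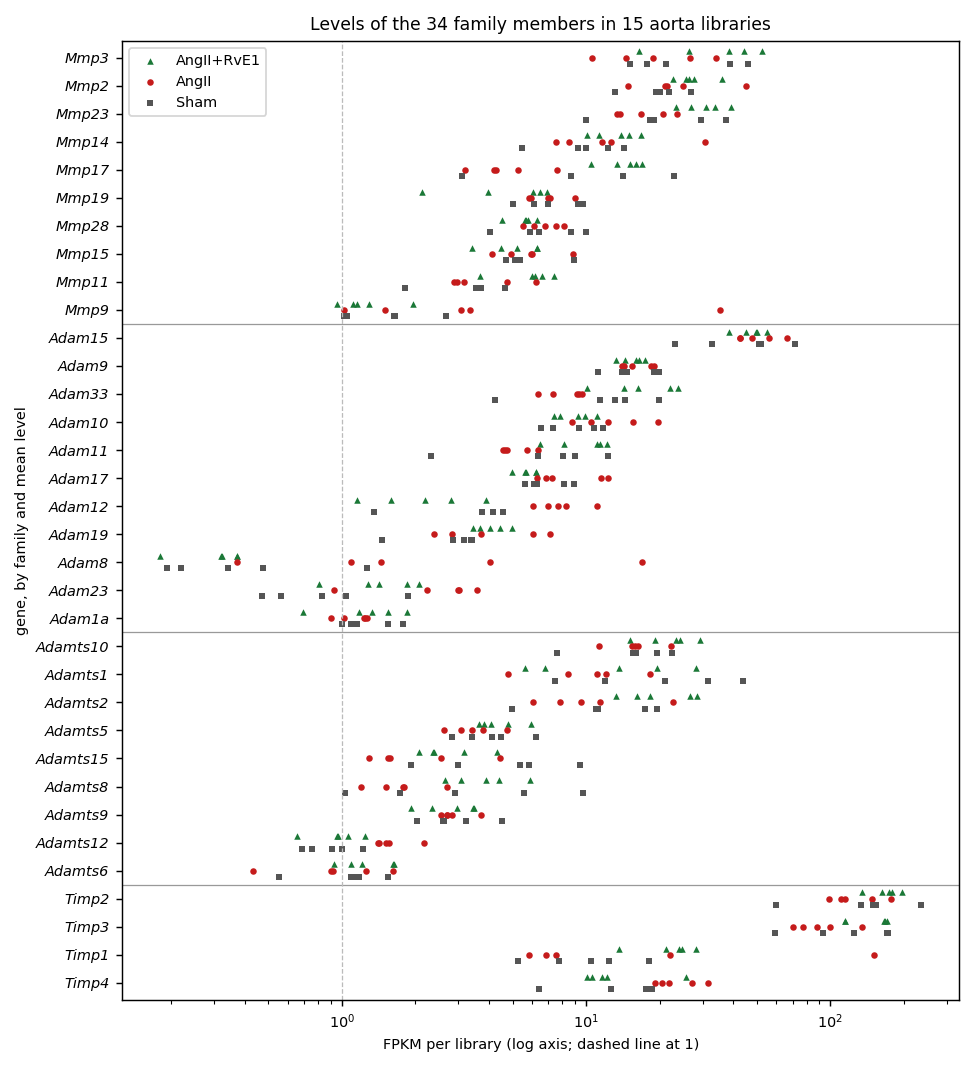
FPKM of the 34 retained members in each of 15 libraries, on a log axis, grouped by family and ordered by mean level. Green triangles are AngII+RvE1, red circles AngII and grey squares Sham libraries (n = 5 each). Timp2 and Timp3 lie between 59.6 and 236 FPKM, while Adamts12 and Adamts6 lie around the dashed line at 1 FPKM and Adam8 runs between 0.181 and 16.9 FPKM.

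The 2 members that passed the test in any comparison moved in opposite directions in AngII+RvE1 aortas relative to AngII aortas: Mmp17 was higher and Adam12 lower. Mmp17 encodes a membrane-type MMP held at the cell surface by a lipid anchor and known from vascular smooth muscle of the mouse aorta. Its gene lies at chr5:129584151-129611099 (mm10). Mmp17 measured 15.1, 10.5, 13.3, 16.9 and 15.97 FPKM in AngII+RvE1 libraries 1 to 5, 4.28, 7.61, 4.20, 5.27 and 3.19 FPKM in AngII libraries 1 to 5, and 22.9, 8.69, 3.10, 8.66 and 14.1 FPKM in Sham libraries 1 to 5. Every AngII+RvE1 library exceeded every AngII library, while the Sham libraries spanned both groups. The means were 14.4 ± 2.53 FPKM in AngII+RvE1 and 4.91 ± 1.68 FPKM in AngII aortas (SD, n = 5 each), with 11.5 ± 7.47 FPKM in Sham. On the log2(FPKM + 1) scale Mmp17 rose by 1.41 ± 0.35 (SE) in AngII+RvE1 relative to AngII (limma, adjusted p = 0.0291). The AngII against Sham difference was -0.90 ± 0.35 (adjusted p = 0.128). It was called in 1 of 15 fits that left out 1 library, at -1.24 without Sham library 3 (adjusted p = 0.0161). Over these 15 fits it ran from -1.24 to -0.61, the latter without Sham library 1, with adjusted p up to 0.277. The AngII+RvE1 against Sham difference was 0.51 ± 0.35 (adjusted p = 0.878).

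The Mmp17 call depended on single libraries and on the filter. With no filter on low values the adjusted p was 0.0636 (limma), and with the replicate number as a block it was 0.0507. It was 0.00422 with only the 2 groups compared, and 0.0168 after rescaling libraries by median ratios. With an added value of 0.1 in place of 1 it was 0.0299. The call held in 8 of the 15 fits that left out 1 library, and was lost without AngII library 3, 4 or 5 or AngII+RvE1 library 1, 3, 4 or 5, where adjusted p lay between 0.0532 and 0.0868. The difference itself stayed between 1.29 and 1.55 in these 15 fits. With AngII libraries 3, 4 and 5 all left out, an alternative chosen after seeing the data, it was 1.17 (adjusted p = 0.409). Calls over all genes moved with single libraries too. They were 531 higher and 543 lower with all libraries, 44 and 54 without AngII library 5, and 721 and 1314 without AngII library 2.

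Mmp17 ran beside the contractile smooth muscle markers from library to library. The mean of the 10 markers on the log2(FPKM + 1) scale was 7.05 to 7.77 in AngII+RvE1 libraries, 5.16 to 6.51 in AngII libraries and 5.62 to 8.04 in Sham libraries. Of these markers 9 of 10 were called higher in AngII+RvE1 than in AngII aortas, and none was at 0 in any library. Ordered by Mmp17, the AngII libraries ran 2, 4, 1, 3, 5, and ordered by the marker mean they ran the same way. Sham libraries 1 and 5 were the highest of their group and Sham library 3 the lowest by both measures. The part of these markers in the Mmp17 result was not tested. In RNA of bulk aorta, fewer cells of a type and less RNA per cell cannot be told apart.

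Adam12, also called meltrin alpha, encodes a protease that sheds growth factors of the EGF family and is known from mesenchymal cells and regenerating muscle. Its gene lies at chr7:133883199-134225097 (mm10). Adam12 measured 2.19, 3.88, 2.81, 1.59 and 1.15 FPKM in AngII+RvE1 libraries 1 to 5, 11.1, 6.04, 7.66, 6.99 and 8.26 FPKM in AngII libraries 1 to 5, and 1.36, 4.56, 3.75, 4.56 and 4.15 FPKM in Sham libraries 1 to 5. All 5 AngII libraries lay above all 10 others, and the AngII+RvE1 and Sham libraries overlapped. Adam12 fell to 2.32 ± 1.07 FPKM in AngII+RvE1 aortas, against 8.02 ± 1.92 FPKM in AngII aortas (SD, n = 5 each). The difference in log2 was -1.47 ± 0.26 (SE; limma, adjusted p = 0.0135). Sham aortas averaged 3.68 ± 1.34 FPKM. The AngII against Sham difference was 0.99 ± 0.26 with an adjusted p of 0.0504, just outside the threshold of 0.05, and the AngII+RvE1 against Sham difference was -0.49 ± 0.26 (adjusted p = 0.802).

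Adam12 was called lower in AngII+RvE1 than in AngII aortas in all 15 fits that left out 1 library, with differences between -1.63 and -1.33 and adjusted p between 0.00522 and 0.0442. With AngII libraries 3, 4 and 5 left out the difference was -1.53 with an adjusted p of 0.254. AngII libraries 1 and 2, whose lymphocyte markers averaged 0.93 and 0.56 on the log2 scale, had 11.1 and 6.04 FPKM of Adam12, at the top and the bottom of the AngII range. Ordered by Adam12, the AngII+RvE1 libraries ran 2, 3, 1, 4, 5. In that order their adipocyte marker mean fell from 8.42 to 7.36, and their contractile smooth muscle marker mean rose from 7.05 to 7.77. The AngII and Sham libraries did not keep either order throughout. The part of these markers in the Adam12 values was not tested. In the AngII against Sham comparison Adam12 passed the threshold without Sham library 3 (adjusted p = 0.0449), AngII library 2 (0.0258) or AngII+RvE1 library 2 (0.0472) or 5 (0.0494). In the other fits that left out 1 library it did not pass, with adjusted p up to 0.121. Neither Mmp17 nor Adam12 shares exon sequence with another gene in the GENCODE vM21 annotation.

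**Figure D2:**
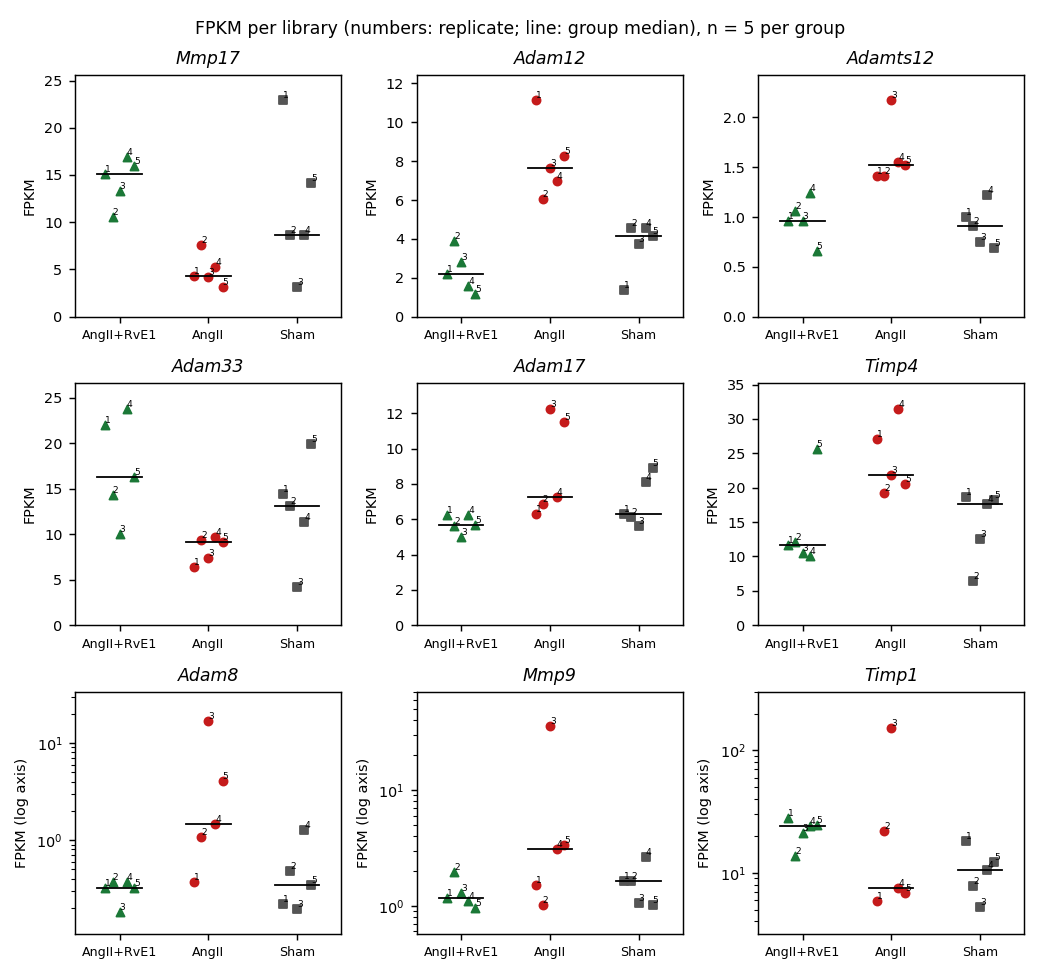
FPKM of 9 members in each library, with AngII+RvE1 on the left, AngII in the middle and Sham on the right. Points are numbered by replicate and lines are group medians (n = 5 each), and the bottom row has log axes. Mmp17 is higher in every AngII+RvE1 library (10.5 to 16.9 FPKM) than in any AngII library (3.19 to 7.61 FPKM), Adam12 is highest in the 5 AngII libraries, and AngII library 3 stands far above its group in Adam8, Mmp9 and Timp1.

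Counted over the 34 retained members, AngII+RvE1 against AngII gave 1 call higher and 1 lower, 2.94% each. Over all 12603 genes tested, 4.21% were called higher and 4.31% lower, so the share of members called was not above that of all genes. At an unadjusted p under 0.05 there were 14 members, 41.2%, against 29.0% of all genes. The 5 libraries of AngII+RvE1 lay wholly above the 5 of AngII in 3 members (Mmp17, Adam11 and Adam33; 5.87% of all genes did so) and wholly below in 4 (Adam12, Adam17, Adam8 and Adamts12; 5.23% of all genes did so). Of these, Adam8 and Adamts12 met the filter mainly through AngII libraries, so nothing is read from them in these counts, nor in that of the 14 members. The median difference of the members was 0.15 on the log2 scale, beside -0.11 over all genes. AngII against Sham gave 0 members called in limma in either direction, where 2.36% of all genes were called higher and 0.809% lower, and 8 members (23.5%) had an unadjusted p under 0.05, against 26.2% of all genes. AngII lay wholly above Sham in 3 members (Adam12, Adamts12 and Timp4; 2.92% of all genes did so) and wholly below in 0 (0.778% of all genes did so), with a median difference of 0.01 beside 0.11 over all genes. Adamts12 is 1 of these 3, and Adamts12 and Adam8 are among the 8 with an unadjusted p under 0.05. Because of how they met the filter, nothing is read from their part here either. AngII+RvE1 against Sham gave 0 calls in limma, where 0.0159% of all genes were called higher and 0.00793% lower. At an unadjusted p under 0.05 there was 1 member, Mmp11 (2.94%, against 6.69% of all genes). In that comparison 1 member, Adam19, lay wholly above Sham (0.825% of all genes) and 0 wholly below (0.262%), and the median difference was 0.14 beside 0.01. The comparisons share groups, so they are not independent of each other.

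**Figure D3:**
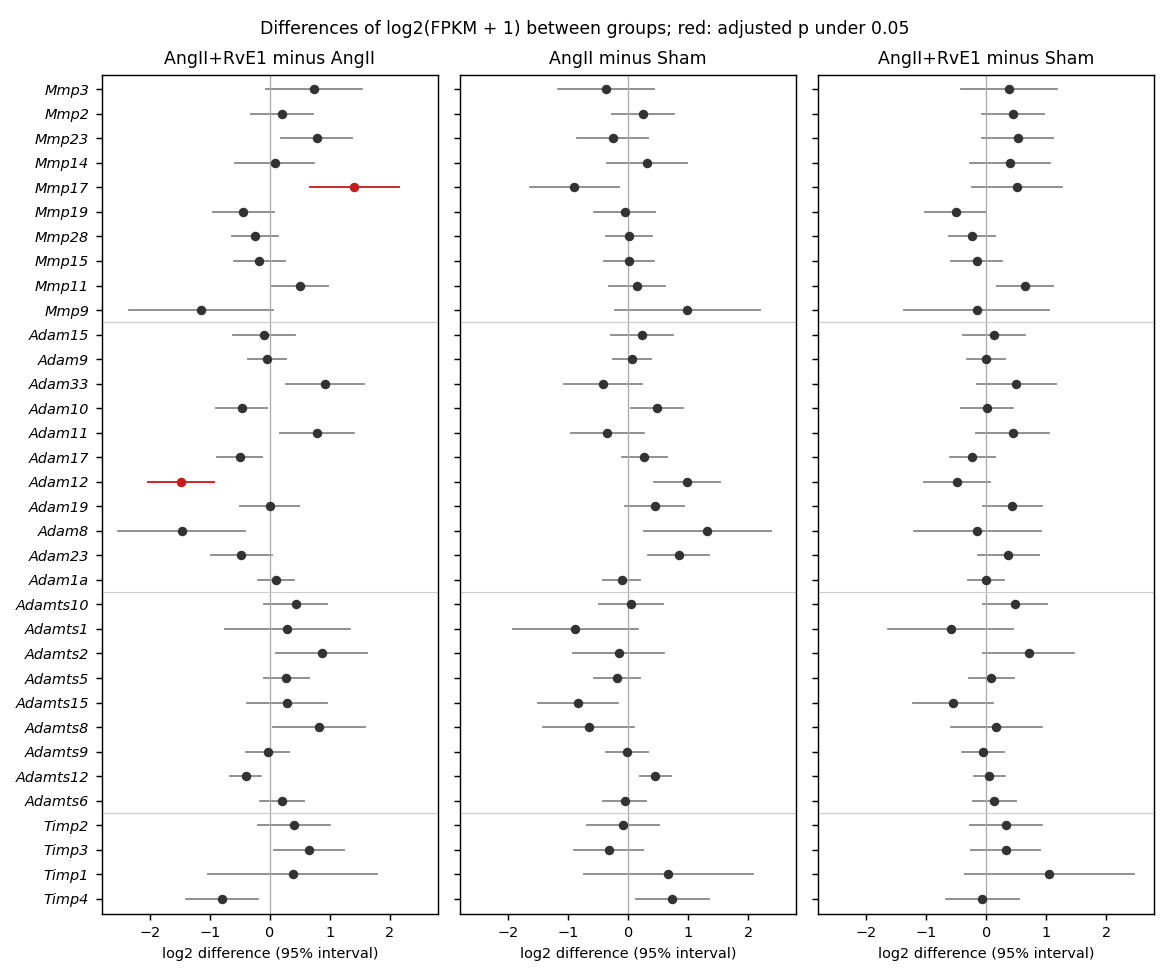
Differences of log2(FPKM + 1) for the 34 retained members, with 95% intervals, for AngII+RvE1 minus AngII, AngII minus Sham and AngII+RvE1 minus Sham. Red marks the differences with an adjusted p under 0.05, which are Mmp17 at 1.41 and Adam12 at -1.47 in the first panel.

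Among the MMPs, the gelatinases and the stromelysin Mmp3 were not called in any comparison. Mmp2 encodes gelatinase A, which cuts basement membrane collagen and gelatin. It measured 25.7, 26.4, 22.8, 36.0 and 27.7 FPKM in AngII+RvE1 libraries 1 to 5, 21.0, 45.0, 24.9, 21.4 and 14.9 FPKM in AngII libraries 1 to 5, and 27.0, 21.9, 13.2, 20.1 and 19.3 FPKM in Sham libraries 1 to 5. The groups overlapped, and AngII library 2 was the highest of the 15. Mmp2 differed by 0.20 ± 0.24 between AngII+RvE1 and AngII (limma, adjusted p = 0.627) and by 0.25 ± 0.24 between AngII and Sham (adjusted p = 0.535). Mmp14, a membrane-type MMP that activates the Mmp2 precursor, measured 13.9, 10.1, 11.3, 16.8 and 15.03 FPKM in AngII+RvE1, 7.54, 8.48, 30.5, 11.6 and 12.6 FPKM in AngII, and 14.3, 9.26, 5.46, 9.96 and 12.3 FPKM in Sham libraries. AngII library 3 was the highest and the remaining libraries of the 3 groups overlapped.

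Mmp9, gelatinase B of neutrophils and macrophages, measured 1.16, 1.96, 1.29, 1.11 and 0.955 FPKM in AngII+RvE1, 1.499, 1.02, 35.4, 3.08 and 3.35 FPKM in AngII, and 1.64, 1.65, 1.05, 2.66 and 1.02 FPKM in Sham libraries. A single library, AngII 3, was far above all others, and the remaining libraries of the 3 groups overlapped. In that library the 9 neutrophil markers averaged 3.39 and the 9 macrophage markers 5.96 on the log2 scale, the highest of the 15 for both lists, with 1 neutrophil marker and no macrophage marker listed at 0. Elsewhere they averaged 0.61 to 2.24 and 3.33 to 4.82. The part of these cells in the Mmp9 value was not tested. The fitted Mmp9 difference was -1.15 ± 0.56 in AngII+RvE1 against AngII (limma, adjusted p = 0.189) and 0.99 ± 0.56 in AngII against Sham (adjusted p = 0.279). Without AngII library 3 these Mmp9 differences were -0.44 (adjusted p = 0.281) and 0.28 (0.569). With AngII libraries 3, 4 and 5 left out both changed sign, to 0.02 and -0.18.

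Other MMPs in the wall were Mmp23, a membrane-anchored member that lacks the hemopexin domain, Mmp11 (stromelysin 3), Mmp15 (a membrane-type MMP), Mmp19 and Mmp28. Mmp23 lay between 23.3 and 39.1 FPKM in AngII+RvE1, between 13.4 and 23.7 FPKM in AngII, and between 10.003 and 37.4 FPKM in Sham libraries. Its difference of 0.78 ± 0.28 between AngII+RvE1 and AngII did not pass (limma, adjusted p = 0.0861). It passed in 1 of 15 fits that left out 1 library, without Sham library 3 (adjusted p = 0.0353), which is in neither group compared. In the other fits adjusted p reached 0.210. Mmp11, Mmp15, Mmp19 and Mmp28 ran between 1.82 FPKM (Mmp11, Sham library 3) and 9.97 FPKM (Mmp28), without a call. Mmp11 shares 155 exon bases with Chchd10 on the opposite strand, a gene at 268 to 1165 FPKM. Mmp19 shares 789 with Tmem198b and Mmp28 shares 466 with 1700020L24Rik, also on the opposite strand. The sources used here do not state whether counting used strand, so these values are uncertain.

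Most MMP genes of the chromosome 9 cluster were near 0, with Mmp3 as the exception. The cluster holds 10 genes over 427.1 kb at chr9:7272514-7699585 (mm10), among them the collagenases Mmp1a, Mmp1b, Mmp8 and Mmp13, the stromelysins Mmp3 and Mmp10 and the macrophage elastase Mmp12. Mmp3, which cuts proteoglycans, laminin and fibronectin and activates other MMPs, measured 52.3, 38.4, 16.5, 44.3 and 26.3 FPKM in AngII+RvE1, 14.6, 26.7, 33.96, 18.8 and 10.6 FPKM in AngII, and 45.9, 17.8, 15.1, 21.2 and 38.7 FPKM in Sham libraries. High and low libraries occurred in every group, and the AngII+RvE1 against AngII difference was 0.74 ± 0.38 (limma, adjusted p = 0.203). The other 9 genes reached at most 1.54 FPKM, which was Mmp12 in AngII library 3. Mmp1a, Mmp1b and Mmp20 were listed at 0 in all 15 libraries. AngII library 3 also held the highest value of Mmp8, a neutrophil collagenase, at 1.53 FPKM.

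**Figure D4:**
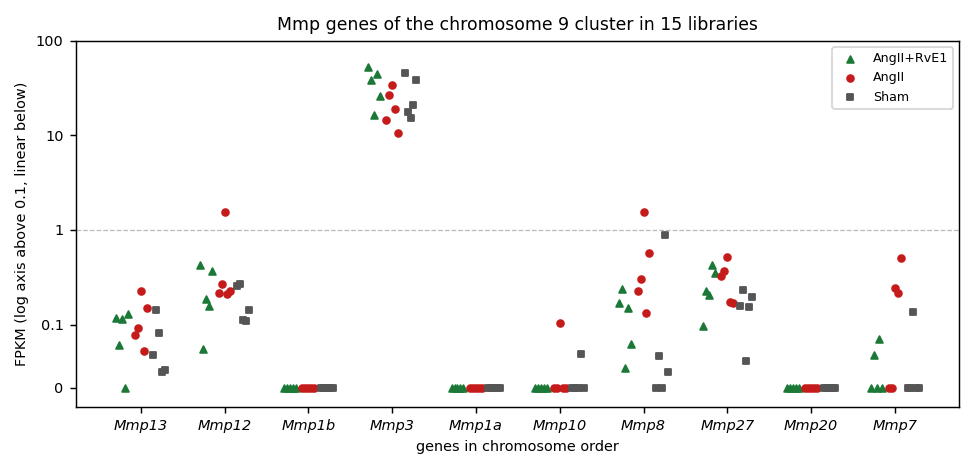
FPKM of the 10 Mmp genes of the chromosome 9 cluster in chromosome order, 1 point per library, on an axis that is logarithmic above 0.1 and linear below. Green triangles are AngII+RvE1, red circles AngII and grey squares Sham. Mmp3 lies between 10.6 and 52.3 FPKM, and all other genes are at or below 1.54 FPKM.

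Promoters of the cluster carry elements known from inducible MMP genes, and both Mmp3 and neighbours near 0 hold them. RefSeq promoters (GRCm38.p6, 250 bases before to 50 after each start) were matched for 50 of the 80 members, 55 promoters in all. The letters TGANTCA, the site of the AP-1 factors, searched on both strands, occurred in 66.7% of the 12 promoters of the cluster and in 7.8% of all 32851 promoters. TATAAA, likewise on both strands, occurred in 75.0% of the cluster and 13.6% of all. GGGCGG, a GC box, occurred in 0.0% of the cluster and 35.7% of all. Only 21 of the 34 retained members had a matched promoter. In their 24 promoters, 8.3% held TGANTCA, 8.3% TATAAA and 66.7% GGGCGG. A match is a description of letters and not a measured site. Stretches from 90 bases before to 30 after the start show the layout for the expressed Mmp3 and for 3 neighbours near 0. Adamts1 is shown too, as the other retained member with TATAAA among those matched. Capitals mark TGANTCA and TATAAA.
Mmp3: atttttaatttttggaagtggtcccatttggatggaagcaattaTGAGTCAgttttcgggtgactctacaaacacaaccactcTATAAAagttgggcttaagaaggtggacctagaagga
Mmp10: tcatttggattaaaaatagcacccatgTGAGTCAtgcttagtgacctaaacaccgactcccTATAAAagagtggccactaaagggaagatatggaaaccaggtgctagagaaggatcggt
Mmp13: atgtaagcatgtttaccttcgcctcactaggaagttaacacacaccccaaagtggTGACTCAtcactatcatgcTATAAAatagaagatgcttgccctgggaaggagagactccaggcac
Mmp1a: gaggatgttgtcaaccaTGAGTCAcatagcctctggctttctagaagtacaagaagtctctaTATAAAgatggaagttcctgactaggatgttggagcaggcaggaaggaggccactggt
Adamts1: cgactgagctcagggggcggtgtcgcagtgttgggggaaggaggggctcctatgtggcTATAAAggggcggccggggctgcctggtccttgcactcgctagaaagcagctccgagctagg
The stretches lie at chr9:7445732-7445851 (Mmp3), chr9:7502252-7502371 (Mmp10), chr9:7272424-7272543 (Mmp13) and chr9:7464051-7464170 (Mmp1a) on the plus strand, and chr16:85803084-85803203 on the minus strand (Adamts1). In Mmp3, Mmp10, Mmp13 and Mmp1a the TGANTCA match stands 39, 34, 19 and 45 bases before TATAAA, so the same order of elements goes with 10.6 to 52.3 FPKM in Mmp3 and with at most 0.105 FPKM in Mmp10, at most 0.227 FPKM in Mmp13 and values listed at 0 in Mmp1a.

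Among the ADAMs that shed membrane proteins, Adam17 lay lower in every AngII+RvE1 library than in any AngII library, and was not called. Adam17, the tumour necrosis factor converting enzyme, measured 6.22, 5.61, 4.99, 6.25 and 5.66 FPKM in AngII+RvE1, 6.31, 6.87, 12.2, 7.28 and 11.5 FPKM in AngII, and 6.28, 6.15, 5.60, 8.09 and 8.92 FPKM in Sham libraries. The AngII+RvE1 and AngII groups touched without overlapping, at 6.25 and 6.31 FPKM, and AngII libraries 3 and 5 were far above the rest. The difference was -0.50 ± 0.17 (limma, adjusted p = 0.0795). It passed without AngII library 1 (adjusted p = 0.0398) or 2 (0.0471), but in no other fit that left out 1 library (up to 0.210). With AngII libraries 3, 4 and 5 left out it was -0.17 (adjusted p = 0.701). Adam17 shares 311 exon bases with Iah1 on the opposite strand, a gene at 31.1 to 54.9 FPKM.

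Adam10, the main sheddase of Notch, measured 9.28, 7.84, 7.36, 9.89 and 11.1 FPKM in AngII+RvE1, 8.75, 10.5, 19.8, 12.3 and 15.6 FPKM in AngII, and 10.8, 6.51, 7.30, 11.7 and 9.33 FPKM in Sham libraries. The same AngII libraries 3 and 5 were highest and the groups overlapped (-0.47 ± 0.20 in AngII+RvE1 against AngII, limma, adjusted p = 0.137). Adam8, a leukocyte ADAM, lay between 0.181 and 0.373 FPKM in AngII+RvE1, between 0.374 and 16.9 FPKM in AngII, and between 0.193 and 1.27 FPKM in Sham libraries. Its AngII+RvE1 and AngII values nearly met, at 0.3728 and 0.3737 FPKM. Adam8 met the rule with 5 libraries, 4 of them AngII. It thus entered through the group where it was high, and its values and difference are given as a description. Macrophage markers averaged 3.44 to 3.65 in AngII+RvE1, 3.48 to 5.96 in AngII and 3.33 to 3.67 in Sham libraries on the log2 scale, and the AngII order by Adam8 (3, 5, 4, 2, 1) was that of these markers too. Neutrophil markers averaged 0.61 to 1.44, 0.77 to 3.39 and 0.70 to 2.24 in the same order of groups. The AngII+RvE1 order by Adam8 (4, 2, 1, 5, 3) was that of the neutrophil and not of the macrophage markers. It rests on near-ties at low values, so nothing is read from it. Libraries 4 and 2 had 0.3728 and 0.3719 FPKM, and libraries 1 and 5 had 0.323 and 0.320 FPKM. In AngII the order was not that of the neutrophil markers, and in Sham neither list kept the Adam8 order. The Adam8 difference was -1.47 on the log2 scale, and -0.37 with AngII libraries 3, 4 and 5 left out. The part of the macrophage and neutrophil markers in it was not tested.

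**Figure D5:**
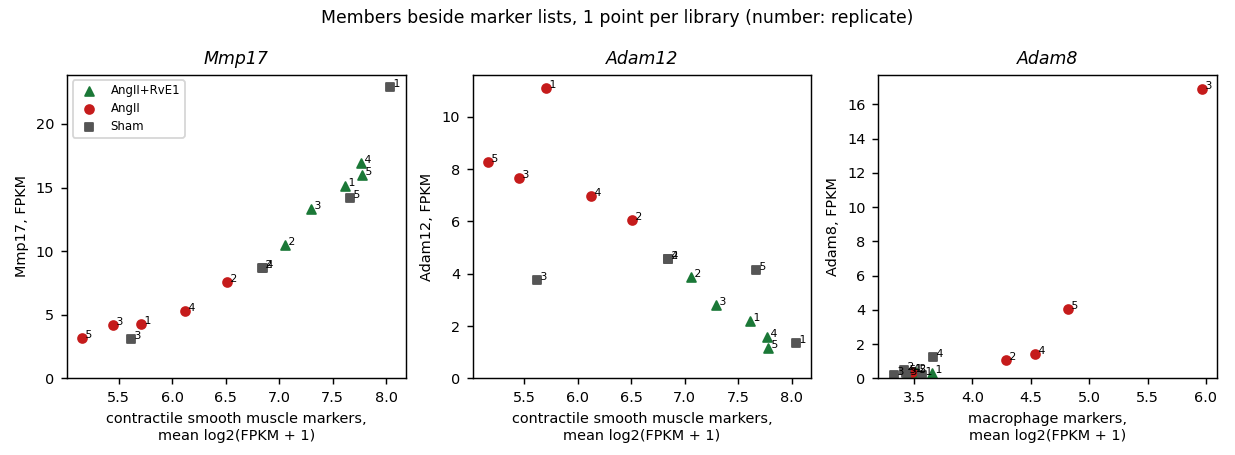
Mmp17 and Adam12 against the mean of 10 contractile smooth muscle markers, and Adam8 against the mean of 9 macrophage markers (x axes, log2(FPKM + 1); y axes, FPKM), 1 numbered point per library, green for AngII+RvE1, red for AngII and grey for Sham. Mmp17 is high where the smooth muscle mean is high in all 3 groups, from 3.10 FPKM in Sham library 3 to 22.9 FPKM in Sham library 1, while Adam8 is high in AngII library 3, where the macrophage mean is 5.96.

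Adam15 and Adam9, widely expressed ADAMs that bind integrins, were the most abundant of their family and were not called in any comparison. Adam15 measured 49.8, 45.1, 38.3, 49.8 and 55.0 FPKM in AngII+RvE1, 42.7, 47.9, 66.4, 56.2 and 42.7 FPKM in AngII, and 71.7, 32.9, 23.1, 52.2 and 50.97 FPKM in Sham libraries. Adam9 measured 17.4, 16.4, 14.5, 15.96 and 13.2 FPKM in AngII+RvE1, 15.4, 18.4, 19.0, 14.009 and 14.3 FPKM in AngII, and 14.7, 14.002, 11.2, 19.0 and 19.8 FPKM in Sham libraries. For both genes the 3 groups overlapped, and AngII+RvE1 against AngII gave -0.09 (95% interval -0.61 to 0.42) for Adam15 and -0.06 (-0.37 to 0.26) for Adam9 on the log2 scale, with no call in limma. Adam9 lies in a group of 5 ADAM genes on chromosome 8 (414.8 kb), of which the other 4 reached at most 0.877 FPKM. Adam15 shares 1263 exon bases with 4731419I09Rik on the opposite strand.

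Adam33 and Adam11 lay higher in every AngII+RvE1 library than in any AngII library. Adam33, known from smooth muscle and fibroblasts of the airway, lay between 10.05 and 23.8 FPKM in AngII+RvE1, between 6.38 and 9.66 FPKM in AngII and between 4.24 and 19.98 FPKM in Sham libraries (0.92 ± 0.31 in AngII+RvE1 against AngII, limma, adjusted p = 0.0716). Adam11, which lacks a working protease site, lay between 6.502 and 12.2 FPKM in AngII+RvE1, between 4.57 and 6.34 FPKM in AngII and between 2.33 and 12.3 FPKM in Sham libraries (0.78 ± 0.29, adjusted p = 0.0924). Neither passed. Of 15 fits that left out 1 library, each passed in 1, without Sham library 3 (limma, adjusted p = 0.0157 for each). In the other fits adjusted p reached 0.157 for Adam33 and 0.181 for Adam11. Sham library 3 is in neither group compared, so leaving it out changed the estimated spread and not the difference. Like Mmp17, Adam33 and Adam11 were lowest of all 15 libraries in Sham library 3. Adam23, another member without a working protease site, was 0.84 ± 0.24 higher in AngII than in Sham without passing (adjusted p = 0.0622). It passed without Sham library 4 (0.0461), AngII library 1 (0.0494) or AngII library 2 (0.0112). In no other fit that left out 1 library did it pass, and adjusted p reached 0.162. Adam19 and Adam1a completed the family, at 1.46 to 7.13 FPKM and 0.697 to 1.85 FPKM. Adam1a shares 1805 exon bases with Mapkapk5 on the same strand, so its low values are uncertain.

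Of the ADAMTS proteases none was called. Adamts10, which acts on fibrillin microfibrils, measured 23.4, 19.2, 15.1, 29.2 and 24.3 FPKM in AngII+RvE1, 11.3, 22.3, 16.3, 15.9 and 15.4 FPKM in AngII, and 15.5, 15.9, 7.62, 19.6 and 22.5 FPKM in Sham libraries. The groups overlapped, with a difference of 0.43 ± 0.25 in AngII+RvE1 against AngII (limma, adjusted p = 0.271). Adamts1, a proteoglycanase that cuts versican and aggrecan, measured 6.77, 19.6, 5.63, 28.2 and 13.7 FPKM in AngII+RvE1, 11.1, 18.3, 8.41, 4.79 and 12.1 FPKM in AngII, and 44.0, 7.48, 11.95, 21.0 and 31.7 FPKM in Sham libraries. Values spread widely within every group, and the AngII against Sham difference was -0.88 ± 0.49 (adjusted p = 0.264). Its neighbour Adamts5, also an aggrecanase, lies beside it on chromosome 16, where the pair spans 107.3 kb. Adamts5 measured 4.77, 3.84, 4.08, 5.93 and 3.63 FPKM in AngII+RvE1, 3.08, 3.80, 4.73, 3.41 and 2.62 FPKM in AngII, and 6.23, 4.47, 2.82, 4.13 and 3.40 FPKM in Sham libraries. Its groups overlapped too.

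Adamts12, which cuts cartilage oligomeric matrix protein, was low but lay above both other groups in AngII: between 0.659 and 1.24 FPKM in AngII+RvE1, between 1.41 and 2.17 FPKM in AngII and between 0.686 and 1.22 FPKM in Sham libraries. It reached 1 FPKM in 8 libraries, 5 of them AngII, so it too met the rule mainly through the group where it was high. As a description, the Adamts12 differences were -0.40 in AngII+RvE1 against AngII and 0.45 in AngII against Sham on the log2 scale. Adamts2, the procollagen N-propeptidase, lay between 13.2 and 28.4 FPKM in AngII+RvE1, between 6.05 and 22.7 FPKM in AngII and between 4.99 and 19.5 FPKM in Sham libraries (0.86 ± 0.35 in AngII+RvE1 against AngII, limma, adjusted p = 0.125). It passed in 1 of 15 fits that left out 1 library, without AngII library 2 (adjusted p = 0.0337), and adjusted p reached 0.301 in the others. The neighbouring pair Adamts15 and Adamts8, together with Adamts6 and Adamts9, ran between 0.434 FPKM (Adamts6) and 9.75 FPKM (Adamts8). Adamts15 differed by -0.84 ± 0.31 in AngII against Sham (adjusted p = 0.117). It passed in 1 of 15 fits that left out 1 library, without Sham library 3 (0.0398), and adjusted p reached 0.248 in the others.

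The inhibitors Timp2 and Timp3 were not called in any comparison. Timp2, which with Mmp14 takes part in activating Mmp2, measured 174, 163, 135, 197 and 179 FPKM in AngII+RvE1, 99.0, 177, 115, 148 and 110 FPKM in AngII, and 236, 134, 60.2, 149 and 154 FPKM in Sham libraries. Timp3, which binds the matrix and also inhibits ADAM and ADAMTS proteases, measured 171, 114, 115, 168 and 166 FPKM in AngII+RvE1, 88.0, 135, 70.5, 99.4 and 77.6 FPKM in AngII, and 170, 93.4, 59.6, 124 and 171 FPKM in Sham libraries. Sham library 3 was the lowest for both and the groups overlapped. AngII+RvE1 against AngII gave 0.40 ± 0.28 for Timp2 (limma, adjusted p = 0.359) and 0.65 ± 0.27 for Timp3 (adjusted p = 0.132). Timp3 shares 1733 exon bases with Syn3 on the opposite strand, a gene at no more than 0.387 FPKM.

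Timp1 and Timp4 varied more. Timp1, the TIMP that inflammatory signals induce, measured 28.1, 13.6, 21.2, 23.97 and 24.7 FPKM in AngII+RvE1, 5.85, 22.1, 152, 7.55 and 6.87 FPKM in AngII, and 18.1, 7.75, 5.29, 10.4 and 12.4 FPKM in Sham libraries. AngII library 3 was far above all others and the other 4 AngII libraries overlapped Sham, so the AngII mean of 38.8 ± 63.4 FPKM (SD, n = 5) is set by 1 library. AngII+RvE1 averaged 22.3 ± 5.45 FPKM and Sham 10.8 ± 4.87 FPKM (SD, n = 5 each), and on the log2 scale they differed by 1.05 ± 0.66 (limma, adjusted p = 0.852). That SE draws on all 3 groups, AngII library 3 among them. With only these 2 groups compared the Timp1 difference was 1.05 ± 0.28 (adjusted p = 0.488). AngII+RvE1 against AngII gave 0.38 ± 0.66 for Timp1 (adjusted p = 0.744), and 1.16 ± 0.36 without AngII library 3 (adjusted p = 0.0869). Timp4, known from heart and fat, measured 11.6, 12.2, 10.6, 10.1 and 25.7 FPKM in AngII+RvE1, 27.1, 19.2, 21.9, 31.4 and 20.5 FPKM in AngII, and 18.7, 6.42, 12.6, 17.6 and 18.2 FPKM in Sham libraries. All AngII libraries were above all Sham libraries and above 4 of the 5 AngII+RvE1 libraries. Neither the AngII+RvE1 against AngII difference of -0.80 ± 0.28 (adjusted p = 0.085) nor the AngII against Sham difference of 0.73 ± 0.28 (adjusted p = 0.125) passed. Adipocyte markers averaged 7.36 to 8.42 in AngII+RvE1, 8.01 to 8.83 in AngII and 7.60 to 8.50 in Sham libraries on the log2 scale, and cardiac muscle markers 0.99 to 6.62, 0.81 to 7.54 and 1.41 to 6.30 in the same order. The part of these cells in the Timp4 values was not tested. Timp4 also shares 90 exon bases with Syn2 on the opposite strand, a gene at 1.34 to 17.4 FPKM.

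Of the 46 members that missed the rule, 12 were listed at 0 in all 15 libraries, 28 were above 0 but never reached 1 FPKM, and 6 reached 1 FPKM in 1 to 4 libraries. Adam8 with 5 libraries stood just inside the rule and Adamts14, a procollagen propeptidase like Adamts2, just outside it with 4. Adam22 reached 1 FPKM in 2 libraries. Adamts4, Adamts7, Mmp8 and Mmp12 did so in 1, which for all 4 was AngII library 3, where the aggrecanase Adamts4 had 1.99 FPKM, against 0.0728 to 0.398 FPKM in the other 4 AngII libraries.

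Genes that work with these families were compared by the same fit, from 3 lists. In AngII+RvE1 against AngII, 2 of 29 tested activators, inhibitors and cofactors were called higher and 1 lower, 6.90% and 3.45%, beside 4.21% and 4.31% of all genes. At an unadjusted p under 0.05 there were 10 (34.5%), beside 29.0% of all genes, and the median difference was 0.24, beside -0.11. Serpine2, protease nexin 1, an inhibitor of serine proteases such as thrombin and plasmin, averaged 234 ± 62.6 FPKM in AngII+RvE1 and 80.4 ± 35.6 FPKM in AngII (SD, n = 5 each), a rise of 1.60 ± 0.39 on the log2 scale (limma, adjusted p = 0.0265). Adamtsl5, an ADAMTS-like microfibril protein without a protease domain, averaged 25.5 ± 5.87 FPKM in AngII+RvE1 and 11.4 ± 6.07 FPKM in AngII, a rise of 1.21 ± 0.34 (adjusted p = 0.0431). Tspan14, a tetraspanin that carries Adam10 to the cell surface, averaged 17.2 ± 2.13 FPKM in AngII+RvE1 and 29.0 ± 7.81 FPKM in AngII, and fell by 0.69 on the log2 scale (SE 0.18, adjusted p = 0.0370). Reck, a membrane inhibitor of MMPs, was 0.92 ± 0.29 higher in AngII+RvE1 without passing (adjusted p = 0.0617).

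Of 25 tested matrix substrates, 4 were called higher and 0 lower in AngII+RvE1 against AngII in limma, where 4.21% and 4.31% of all genes were, and 12 had an unadjusted p under 0.05, beside 29.0% of all genes (median 0.69). Elastin (Eln) averaged 894 ± 383 FPKM in AngII+RvE1 and 230 ± 141 FPKM in AngII (2.04 ± 0.55, adjusted p = 0.0372). The proteoglycan biglycan (Bgn) averaged 1761 ± 436 FPKM in AngII+RvE1 and 612 ± 408 FPKM in AngII (1.70 ± 0.47, adjusted p = 0.0402). Aggrecan (Acan) and perlecan (Hspg2) were also called, at 1.05 ± 0.28 (adjusted p = 0.0357) and 0.98 ± 0.28 (adjusted p = 0.0450). These genes rose in the comparison in which the contractile smooth muscle markers rose, and the part of those markers was not tested.

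Of 30 tested membrane proteins known to be shed by ADAMs, 1 was called higher (3.33%) and 2 lower (6.67%) in AngII+RvE1 against AngII, beside 4.21% and 4.31% of all genes, and 14 had an unadjusted p under 0.05 (46.7%, beside 29.0%; median -0.23). Il6ra, the interleukin 6 receptor, averaged 1.25 ± 0.50 FPKM in AngII+RvE1, 4.26 ± 1.60 FPKM in AngII and 1.67 ± 0.68 FPKM in Sham (SD, n = 5 each). It was lower in AngII+RvE1 than in AngII (-1.20 ± 0.22, limma, adjusted p = 0.0148) and higher in AngII than in Sham (0.96 ± 0.22, adjusted p = 0.0340). The growth factor Tgfa averaged 0.721 ± 0.111 FPKM in AngII+RvE1 and 2.03 ± 1.04 FPKM in AngII (-0.75 ± 0.19, adjusted p = 0.0283). The growth factor Ereg averaged 1.42 ± 0.34 FPKM in AngII+RvE1 and 0.316 ± 0.303 FPKM in AngII (0.89 ± 0.23, adjusted p = 0.0303). Tgfa reached 1 FPKM in 5 AngII, 2 Sham and 0 AngII+RvE1 libraries, Acan in 5 AngII+RvE1, 1 AngII and 1 Sham, and Ereg in 4 AngII+RvE1, 0 AngII and 3 Sham. These 3 genes met the filter largely through groups where they were high. Nothing is read from their part in the counts, and their differences and adjusted p are given only as descriptions. In the comparison in which Il6ra and Tgfa fell, 5 of 9 macrophage markers were called lower (median -1.14), and 10 tested lymphocyte markers had a median of -2.33 with 0 called in limma and 10 at an unadjusted p under 0.05. The part of these cells in the Il6ra and Tgfa results was not tested. In AngII against Sham, Il6ra was the only call among the 3 lists, 5, 1 and 10 genes of the lists had an unadjusted p under 0.05 (26.2% of all genes did), and the medians were -0.06, -0.20 and 0.20. In AngII+RvE1 against Sham 0 genes of the 3 lists were called in limma, 1, 3 and 1 had an unadjusted p under 0.05 (6.69% of all genes did), and the medians were 0.26, 0.53 and 0.07.

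Like Mmp17, most of these calls depended on single libraries, as did the number of calls over all genes. The Il6ra difference between AngII+RvE1 and AngII was called in all 15 fits that left out 1 library, with adjusted p up to 0.0475. The other 9 calls of that comparison held in 4 (Adamtsl5, Hspg2), 5 (Bgn), 8 (Acan, Ereg, Tgfa, Tspan14) or 9 (Eln, Serpine2) of the 15, and all 9 were lost without AngII library 4 or 5 or AngII+RvE1 library 1, 3, 4 or 5. AngII library 3 cost the call of all but Eln and Serpine2, and Sham libraries 2 and 4 and AngII library 1 that of Bgn, Hspg2 and Adamtsl5, as did AngII+RvE1 library 2 for Hspg2 and Adamtsl5. Their largest adjusted p lay between 0.0689 (Tgfa) and 0.129 (Hspg2). Acan, Ereg and Tgfa stand among these calls as descriptions only. The Il6ra call in AngII against Sham held in 9 of 15 and was lost without Sham library 1, 2 or 5 or AngII library 3, 4 or 5, with adjusted p up to 0.0939. With no filter on low values it was lost too (adjusted p = 0.0678), and so it was with only the 2 groups compared (0.108). The same 9 calls of AngII+RvE1 against AngII were lost with no filter, at adjusted p between 0.0589 (Serpine2) and 0.0905 (Bgn). With AngII libraries 3, 4 and 5 left out none of the calls remained, and all kept their direction. The Il6ra difference was then -0.81 (adjusted p = 0.309), Tgfa was at -0.28 (0.449) and Tspan14 at -0.31 (0.556), while Eln was at 1.89 (0.377).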

How the data were processed

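RNA was sequenced from 15 aorta libraries. The authors deposited 1 table of gene symbols and 1 value per library, and the file names no unit. Values were treated as FPKM as deposited by the authors: they are not whole numbers, library sums are unequal, and among rarely seen genes with 1 transcript the lowest value above 0 had a median of 0.0524 for lengths of 500 to 1000 bases and 0.0138 for 4000 to 16000 bases. TPM over a wider gene set would look alike. The build is mm10, per the submitters' processing notes. Aligner, quantifier and annotation: not given in the sources used here. Depth is unknown, and the number of libraries limits precision.

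Genes at 1 or more in at least 5 libraries were kept (12603 of 34714) and fitted as log2(FPKM + 1) with limma-trend (limma 3.58.1, R 4.3.3), with 1 mean per group over all 15 libraries. The 3 comparisons were tested two-sided with Benjamini-Hochberg adjustment over all genes kept, at 0.05. The added 1 pulls differences of genes with low values toward 0. Called means an adjusted p under 0.05. The procedure was tested on simulated data. Alternatives were an added value of 0.1, no filter, a replicate block, fits of the 2 groups of a comparison alone, rescaling by median ratios, each library left out, and AngII libraries 3, 4 and 5 left out, which was added after seeing the data.

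Gene coordinates, promoters and names came from the RefSeq tables of GRCm38.p6, and exon overlaps from GENCODE vM21. Values in every library are given for called members, the 2 most abundant members of each family, and a fixed set of well-known members; the text also names further members by their ranges. The pathway lists name up to 4 called genes a list. Reck was named after its values were seen. The members, lists and rules were chosen with earlier results of these data known.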

Additional observations from a re-analysis of the deposited data

Results flagged for a closer look

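In 8 of 102 groups of 5 libraries, the highest or lowest library stood apart from the other 4 by more than 0.71 of the group's range. Gap and range were taken on the log2(FPKM + 1) scale, while the values below are FPKM. Chance alone gives about 1 in 20 groups, or 5.1 here. AngII library 3 was the highest of its group in 3 of them, with 35.4 FPKM of Mmp9 (the other AngII libraries had 1.02 to 3.35), 2.17 FPKM of Adamts12 (1.41 to 1.55) and 3.72 FPKM of Adamts9 (2.54 to 2.84). Sham libraries stood apart in 3: Adam12 was low in Sham library 1 at 1.36 FPKM (others 3.75 to 4.56), Adam19 was low in Sham library 3 at 1.46 FPKM (2.85 to 3.42), and Mmp15 was high in Sham library 4 at 8.96 FPKM (4.71 to 5.36). AngII+RvE1 libraries stood apart in 2: Timp4 was high in library 5 at 25.7 FPKM (10.1 to 12.2) and Adam8 was low in library 3 at 0.181 FPKM (0.320 to 0.373).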

How the results depend on the processing

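In AngII+RvE1 against AngII, 1 member was called higher. The count was 0 with no filter (Mmp17, adjusted p = 0.0636), 4 after rescaling (Adam11, Adam33, Mmp17 and Mmp23), 5 with only the 2 groups compared (the same 4 and Adamts8), 0 with AngII libraries 3, 4 and 5 left out, and 0 to 4 with 1 library left out. The 1 called lower became 2 with an added value of 0.1 (Adam12 and Adam8), 0 with AngII libraries 3, 4 and 5 left out, and 1 to 5 with 1 library left out. The cause was not tested. With 3 libraries fewer the fit also has fewer samples. In AngII against Sham the counts of 0 became 0 to 3 higher and 0 to 2 lower with 1 library left out, and stayed at 0 in the other alternatives. AngII+RvE1 against Sham gave 0 in all of them.

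With the replicate block, AngII+RvE1 against AngII gave 0 higher (Mmp17, adjusted p = 0.0507) and 1 lower. The calls of Acan, Adamtsl5, Bgn, Eln, Ereg, Hspg2, Serpine2 and Tspan14 in that comparison were lost too (adjusted p between 0.0507 and 0.0770), as was that of Il6ra in AngII against Sham (0.0693). Replicate numbers are not stated to pair samples: deviations of same-numbered libraries correlated between -0.41 and 0.52.

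Of 2142 values, from 102 member differences under 21 alternatives, 95 changed sign, 0 of them called. These changes fell on 34 of the 102 differences, of which the largest had a size of 1.15 in the main fit. Rescaling moved the median difference of all genes in AngII against Sham to -0.00, against 0.11 before it, and the calls to 259 higher and 282 lower, against 298 and 102. In AngII+RvE1 against AngII rescaling gave 819 higher and 479 lower, against 531 and 543.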
